A study of Mus musculus with 24 samples.

Results

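Control libraries of mouse MLL-AF9 leukaemia were compared by the Cre line they carried. Of the 24 RNA sequencing libraries of the study, 12 are controls, and they were chosen by their labels alone, with no measured value. There were 6 MxCre controls, 3 titled A2 and 3 titled A1b, and 6 VavCre controls, 3 from an Arid1b set and 3 from an Arid2 set. The remaining 12 libraries are the floxed counterparts of the same 4 sets and were used to see whether a difference recurred and in an alternative fit of all 24. All cells expressed the MLL-AF9 fusion, which drives an acute myeloid leukaemia, and came from the bone marrow of secondary transplant recipients that had become moribund. Every control carried Cre and had unfloxed (+/+) alleles of the gene studied in its set, Arid1b or Arid2, which encode DNA-binding subunits of SWI/SNF chromatin remodelling complexes. MxCre recipients, controls included, had received pIpC, a synthetic double-stranded RNA, at 12.5 µg per g body weight 3 times within 1 week, starting 21 days after transplantation. VavCre recipients had not. The titles and the cell type labels of both MxCre sets name different genes, so these sets are called by their titles. The labels describe no sorting, and whether the replicates of a set trace back to different primary leukaemias is not stated. The p-values therefore describe the spread between these libraries, part of which may be technical. Each Cre line is represented by 2 sets, and Cre line, pIpC and set of origin cannot be told apart.

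MxCre places the recombinase under the promoter of Mx1, an interferon-induced antiviral GTPase gene, so pIpC is given to raise interferon and switch Cre on. VavCre uses regulatory DNA of Vav1, a guanine nucleotide exchange factor of blood cells, and is active throughout haematopoiesis without an inducer. Interferon acts through the receptor chains Ifnar1 and Ifnar2 and, through a transcription factor complex that contains Irf9, on the interferon-stimulated response element in the promoters of its target genes. The control comparison asks how far leukaemias with these Cre lines, and with or without pIpC, differ where the Arid gene of the set was not floxed.

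To show what the inducible class of promoter looks like, 3 stretches of 250 bases ending at the transcription start are given from RefSeq (GRCm38.p6), with matches to the interferon-stimulated response element, searched as GAAA, any 2 bases and GAAA again on either strand, in capitals. Isg15, a ubiquitin-like interferon target, lies on the minus strand at chr4:156200819-156201068. Ifit1, an antiviral RNA-binding protein, lies on the plus strand at chr19:34640639-34640888. The Vav1 stretch is on the plus strand at chr17:57278850-57279099 and is that of the endogenous gene, not of the transgene.
Isg15: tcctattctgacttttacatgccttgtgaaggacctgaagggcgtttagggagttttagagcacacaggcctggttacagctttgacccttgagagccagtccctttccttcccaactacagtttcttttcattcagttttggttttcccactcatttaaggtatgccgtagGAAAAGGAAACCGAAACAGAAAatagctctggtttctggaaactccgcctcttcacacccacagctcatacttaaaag
Ifit1: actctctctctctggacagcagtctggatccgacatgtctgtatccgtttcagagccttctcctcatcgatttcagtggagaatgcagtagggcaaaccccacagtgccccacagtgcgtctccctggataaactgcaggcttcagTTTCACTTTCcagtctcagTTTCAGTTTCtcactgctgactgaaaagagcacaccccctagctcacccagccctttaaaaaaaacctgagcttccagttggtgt
Vav1: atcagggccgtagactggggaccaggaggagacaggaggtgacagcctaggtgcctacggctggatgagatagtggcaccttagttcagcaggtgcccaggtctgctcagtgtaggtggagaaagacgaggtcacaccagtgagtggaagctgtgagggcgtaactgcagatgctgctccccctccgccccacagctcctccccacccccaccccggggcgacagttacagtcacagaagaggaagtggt
Isg15 held 3 overlapping matches, Ifit1 held 2 on the opposite strand, and the Vav1 stretch held 0. Of 28 tested genes of the interferon response list with a stretch, 15 (53.6%) held a match, against 304 of 9548 tested genes (3.18%). A match describes these letters and is not a measured binding site.

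Depth ran from 12727157 to 38315410 counts per library, and the 3 VavCre Arid2 controls were the deepest. The table held 24046 genes, of which 12814 had enough reads to be tested in the controls. The sets also differed in the sex of the cells: 5 libraries, all 3 of the VavCre Arid1b set and 2 of the MxCre set titled A1b, had the Y-linked gene Kdm5d above 10 CPM, the count scaled to library size, and 7 did not. Xist, the RNA of the inactive X chromosome, stood at 5.21 to 68.3 CPM in the 5 and at 1482 to 2796 CPM in the 7. The myeloid leukaemia label fitted the levels of Mpo, the myeloperoxidase of early granulocytic cells (369 to 6736 CPM), and of the MLL fusion targets Hoxa9 (152 to 437 CPM) and Meis1 (65.4 to 159 CPM), which were high in all 12 controls. Pf4, a chemokine of platelets, was at most 1.00 CPM. Other genes of the platelet list were higher, with Itga2b at up to 105 CPM and Itgb3 at up to 108 CPM.

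Between the 6 MxCre and the 6 VavCre controls, 1 gene of 12814 was called at an adjusted p under 0.05 by edgeR's quasi-likelihood test (0.0078%), and it was lower in MxCre. A further measure of the contrast is that 1824 genes (14.2%) had an unadjusted p under 0.05, 940 higher (7.34%) and 884 lower (6.9%) in MxCre. The estimated difference lay within 2-fold for 95.02% of genes, and the median gene's 95% confidence interval reached 0.35 log2 units to either side. In data simulated with these library sizes the test recovered 56 of 102 genes (54.9%) changed 2-fold and 84 of 95 (88.4%) changed 4-fold. The simulation drew each library independently, with no shared difference between sets and many more changed genes than were called here. Its shares therefore do not give the recovery in these libraries, and even in the simulation 2-fold differences were often missed. Shares of the sum of squares were taken as medians over genes, separately for each part. They were 10.4% for Cre line, 19.7% for set within Cre line and 61.9% for library within set. The parts have different degrees of freedom, fewest for Cre line and most for library within set. Unequal shares would therefore arise without any difference between groups, and the shares do not rank Cre line against set. DESeq2 on the same libraries called 139 genes (1.08%), 95 higher and 44 lower.

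The 6 and 6 libraries did not overlap for 54 genes (0.421%), 28 higher (0.219%) and 26 lower (0.203%) in MxCre. Of the 28 higher genes, 16 (57.1%) had names of cDNA clones, predicted genes, microRNA entries or antisense transcripts, against 0 of the 26 lower genes and 8.7% of all tested genes. Such entries often lie inside other genes, and the strand setting of the counting is not given in the sources used here. Because these genes were chosen after their values were seen, for the absence of overlap, the following values are a description.

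Among named coding genes, Pyhin1, a nuclear protein of the interferon-inducible HIN-200 family, ranged from 10.3 to 43.8 CPM (median 30.1) in VavCre and from 64.4 to 155 CPM (median 93.0) in MxCre controls. Bach2, a transcriptional repressor of lymphoid and myeloid fate, ranged from 0.217 to 0.885 CPM and from 0.892 to 5.92 CPM, so its groups were nearly touching. Scpep1, a serine carboxypeptidase, ranged from 30.3 to 63.3 CPM and from 74.2 to 88.9 CPM, and its antisense transcript Scpep1os from 2.13 to 4.16 CPM and from 6.70 to 9.41 CPM. Whether the counting separated the reads of these partners is not known. In the other direction, Cd63, a tetraspanin of granule and lysosome membranes, measured 442, 432 and 320.1 CPM in the VavCre Arid1b controls and 454, 471 and 314 CPM in the VavCre Arid2 controls. It measured 162, 193 and 297 CPM in the MxCre controls titled A2 and 160.3, 297 and 221 CPM in those titled A1b. Lta4h, the enzyme that makes leukotriene B4, ranged from 872 to 1093 CPM and from 557 to 865 CPM. Cyfip2, a subunit of the WAVE actin-regulatory complex, ranged from 266 to 395 CPM and from 173 to 241 CPM. Their edgeR adjusted p-values were 0.271 for Pyhin1, Bach2, Cd63, Lta4h and Cyfip2, 0.297 for Scpep1 and 0.101 for Scpep1os.

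The genes that give the Cre lines their names were measured in every control. Mx1 stood at 2.23, 8.38 and 3.904 CPM in the VavCre Arid1b controls, and at 11.9, 16.0 and 18.0 CPM in the VavCre Arid2 controls. It stood at 21.7, 28.6 and 14.5 CPM in the MxCre controls titled A2 and at 28.2, 23.4 and 25.4 CPM in those titled A1b. The MxCre libraries were mostly the higher ones, with 1 of them inside the VavCre range (log2 fold change 1.23, SE 0.43; edgeR adjusted p = 0.299). Its neighbour Mx2 gave 1.11 on the same scale (SE 0.45; edgeR adjusted p = 0.319), at 0.271 to 2.60 CPM in VavCre and 1.96 to 4.97 CPM in MxCre. Vav1 ranged from 320.0 to 414 CPM in VavCre and from 340.5 to 423 CPM in MxCre controls, and the interval of its difference ran from -0.21 to 0.18 log2 units. Arid1b ranged from 188 to 419.7 CPM in VavCre and from 142 to 448 CPM in MxCre, and Arid2 from 220.3 to 451 and from 191 to 554 CPM. Neither Arid gene differed beyond the spread between libraries (edgeR adjusted p = 0.548 and 0.857).

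The interferon response list did not separate the Cre lines in the controls at the time of harvest. Of its 41 tested genes 19 had estimates above 0 and 22 below, 0 were called by edgeR, and the median log2 fold change was -0.06, beside -0.01 over all tested genes. Unadjusted p fell under 0.05 for 3 genes higher in MxCre, namely Mx1, Mx2 and Parp14, and for 1 lower, Ddx58, the RNA sensor RIG-I. Of all tested genes, 7.34% were higher and 6.9% lower at that p. Isg15 measured 0.364 to 5.85 CPM (median 2.28) in VavCre and 0.743 to 5.44 CPM (median 2.24) in MxCre controls. Ifit1 measured 0.652 to 8.73 CPM and 0.149 to 7.47 CPM. The ranges of both genes whose promoters are printed above overlapped almost fully. The mean log2 level of the list varied between libraries of both Cre lines. It was 4.11 and 4.54 in VavCre Arid2 controls 1 and 2 and 3.91 to 4.37 in the MxCre controls titled A1b. In the remaining 7 libraries, of both Cre lines, it was 3.11 to 3.503.

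Genes that sense double-stranded RNA or carry the interferon signal leaned to the MxCre side. Of 19 tested, 14 had estimates above 0, with a median of 0.17, and 6 of them, with 1 of the others, had an unadjusted p under 0.05. The 1 lower gene was Ifngr1 (log2 fold change -0.26, SE 0.12; edgeR adjusted p = 0.340). Among all tested genes the shares at that p were 7.34% higher and 6.9% lower. Ifnar1 ranged from 107 to 153 CPM (median 115) in VavCre and from 142 to 223 CPM (median 178) in MxCre controls (log2 fold change 0.56, SE 0.14; edgeR adjusted p = 0.297). Ifnar2, its partner chain, ranged from 139 to 192 CPM and from 159.9 to 276 CPM (log2 fold change 0.49, SE 0.14; edgeR adjusted p = 0.297). Irf8, a transcription factor of monocytes and dendritic cells, ranged from 64.8 to 418 CPM and from 193 to 681 CPM (log2 fold change 1.19, SE 0.43; edgeR adjusted p = 0.312). Ifnar1, Ifnar2 and Irf8 had overlapping groups and missed the threshold. Irf8 also belongs to the monocyte and macrophage list. DESeq2 called Ifnar1.

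Of the lists with more than 15 tested members, MHC class II and monocyte genes had the highest medians. All 17 tested MHC class II and dendritic genes had estimates above 0 (median 0.96), 8 had an unadjusted p under 0.05, and 0 were called by edgeR. H2-DMb2, a subunit of the class II peptide-loading complex, was its only member without overlap, at 1.36 to 3.79 CPM in VavCre and 4.34 to 7.68 CPM in MxCre (edgeR adjusted p = 0.297). Over all tested genes, 7.34% were higher at an unadjusted p under 0.05 and 0.219% were higher without overlap. Cd74, H2-Aa and Ciita were high in particular libraries, while H2-DMb1, a further loading subunit, was not: it ranged from 26.7 to 45.0 CPM in VavCre and from 27.7 to 59.2 CPM in MxCre controls. Cd74, the invariant chain, stood at 106 CPM in MxCre titled A2 control 2 and at 76.3 and 133 CPM in MxCre titled A1b controls 1 and 3. The other 3 MxCre controls held 10.01 to 20.9 CPM, and the VavCre controls 2.71 to 33.9 CPM. H2-Aa and Ciita, the class II transactivator, were highest in the same 3 libraries, at 25.3 to 43.6 CPM and 4.42 to 5.59 CPM. In the other 9 controls H2-Aa did not pass 8.47 CPM and Ciita did not pass 0.867 CPM. Of 15 MHC class I and processing genes 13 had estimates above 0 (median 0.41). Their summed level was 4516 to 5780.1 CPM in the same 3 libraries, and 1901 to 3174 CPM in the other MxCre controls, which reached no higher than the VavCre controls (2078 to 4172 CPM). Of 26 monocyte and macrophage genes 19 had estimates above 0 (median 0.63). Their sum was 13671 CPM in MxCre titled A2 control 1, 3888 to 5895 CPM in the other MxCre controls and 1341 to 7073 CPM in VavCre.

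Csf1r, the receptor of the macrophage growth factor, ranged from 68.1 to 405 CPM in VavCre and from 180.4 to 671 CPM in MxCre controls (log2 fold change 1.15, SE 0.43; edgeR adjusted p = 0.314). Cd68, a lysosomal protein of macrophages, ranged from 34.8 to 136 CPM and from 97.2 to 202 CPM (log2 fold change 0.78, SE 0.28; edgeR adjusted p = 0.301). Nlrp3, the inflammasome sensor, ranged from 2.19 to 34.5 CPM and from 18.5 to 82.2 CPM, and 16 of 19 tested genes of its NF-kB and inflammation list had estimates above 0 (median 0.45). The immediate-early list had 18 of 21 above 0 (median 0.43). Its sum was 1198 CPM in MxCre titled A2 control 1, while the other 5 MxCre controls, at 554 to 731 CPM, lay within the VavCre range of 346 to 865 CPM. Fewer cells of a type and less RNA per cell cannot be told apart in bulk libraries. The part of monocytic cells in these estimates was not tested.

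Genes of energy supply and growth leaned to the VavCre side by small amounts. Of 26 nuclear genes of oxidative phosphorylation 25 had estimates below 0, with a median of -0.19. In this list 8 genes, all lower, had an unadjusted p under 0.05, beside 6.9% of all tested genes lower at that p. Cox5a, a subunit of cytochrome c oxidase, ranged from 105 to 136 CPM in VavCre and from 81.9 to 112 CPM in MxCre controls (log2 fold change -0.26, SE 0.09; edgeR adjusted p = 0.297). Of 21 MYC and ribosome biogenesis genes 18 were below 0 (median -0.23), of 36 cell cycle genes 28 (median -0.21) and of 23 cholesterol and fatty acid synthesis genes 20 (median -0.12). Genes of such lists are not independent of each other. The granulocytic maturation and MLL fusion target lists had medians of -0.14 and -0.13.

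**Figure D1:**
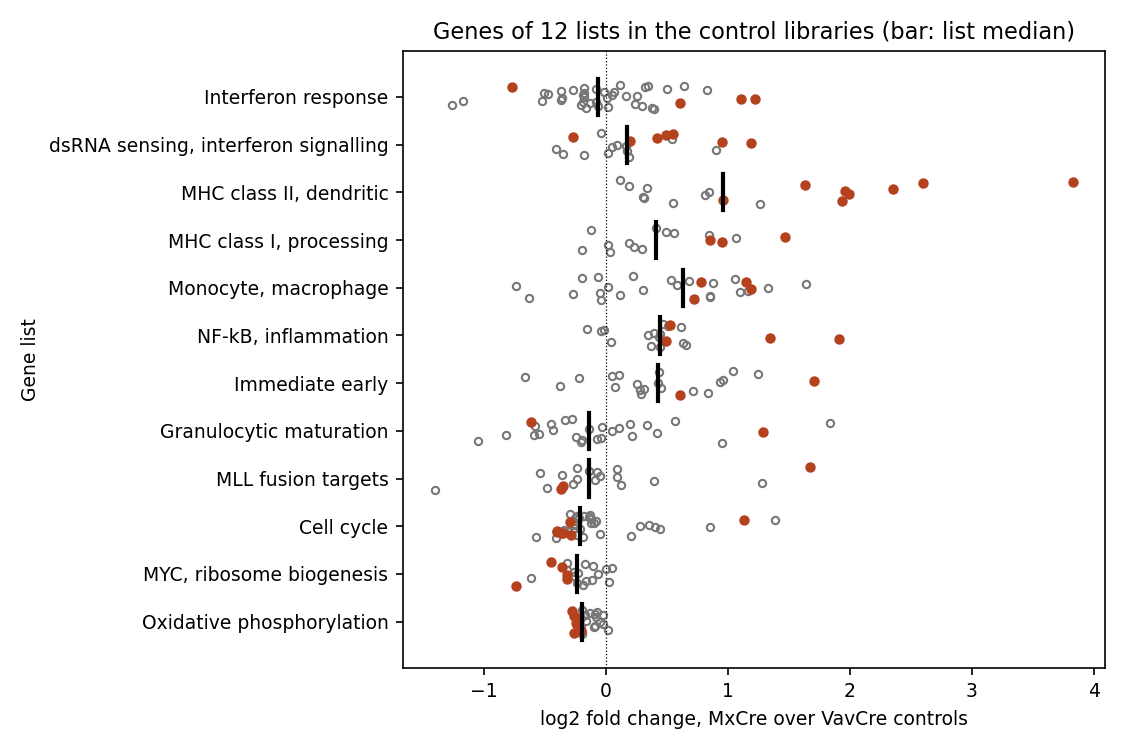
Log2 fold change of MxCre over VavCre controls (horizontal axis) for each tested gene of 12 lists, with the list median as a black bar and genes with an unadjusted p under 0.05 filled. The MHC class II list lies wholly above 0, the interferon response list straddles it, and the oxidative phosphorylation genes lie close below it.

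Summed markers of other blood and stromal cells overlapped between Cre lines in each list. The summed level of 15 erythroid genes was 67.1 to 217 CPM in VavCre and 73.8 to 330.4 CPM in MxCre controls. The highest was MxCre titled A1b control 2, which held 7.07 CPM of Hba-a1 against 0.326 to 0.892 CPM in the other MxCre controls. The median log2 fold change of the 8 erythroid genes tested, 1.29, rested on this library and was -0.48 without it. The paired globin entries Hba-a1 and Hba-a2 gave identical estimates, so reads of these near-identical copies cannot be told apart. The mast cell, basophil and eosinophil sum was 1521 and 1183 CPM in VavCre Arid1b controls 1 and 2, and 83.7 to 321 CPM in the other 10 controls. Prg3, an eosinophil granule protein, was 249 and 122 CPM in those 2 libraries and 1.97 to 20.2 CPM in the other 10. The sums of the T and NK cell (23.2 to 69.4 CPM), B lineage (22.5 to 82.5 CPM) and platelet lists (172 to 415 CPM) overlapped. So did that of the stromal and endothelial list (332 to 651 CPM in VavCre, 360 to 877 CPM in MxCre). Such sums do not count cells, because members of a list differ widely. In the stromal list Runx2 averaged 136 CPM in VavCre and 151 CPM in MxCre, and Pecam1 135 and 196 CPM. Col1a1 averaged 4.46 and 4.67 CPM and Lepr 2.34 and 2.29 CPM.

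The first principal component of the controls ran across the Cre lines. It held 42.1% of the variance and set 5 libraries, VavCre Arid1b control 3, all VavCre Arid2 controls and MxCre titled A1b control 2, against the other 7. Tcf24, a basic helix-loop-helix factor, measured 897 to 1657 CPM in 4 of those 5 libraries, 16.1 CPM in VavCre Arid2 control 3 and at most 8.32 CPM in the other 7. Cd34, a surface protein of stem and progenitor cells, ran the other way, at 82.5 to 742 CPM in the 7 libraries and 1.90 to 70.2 CPM in the 5. Gata2, a stem cell and mast cell factor, measured 27.9 to 207 CPM in the 7 and 0.211 to 7.70 CPM in the 5. Of these 5 libraries 4 carried VavCre, so this division and the Cre line are not independent. With the first component as a term, 0 genes differed between Cre lines by edgeR (1261 at an unadjusted p under 0.05).

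**Figure D2:**
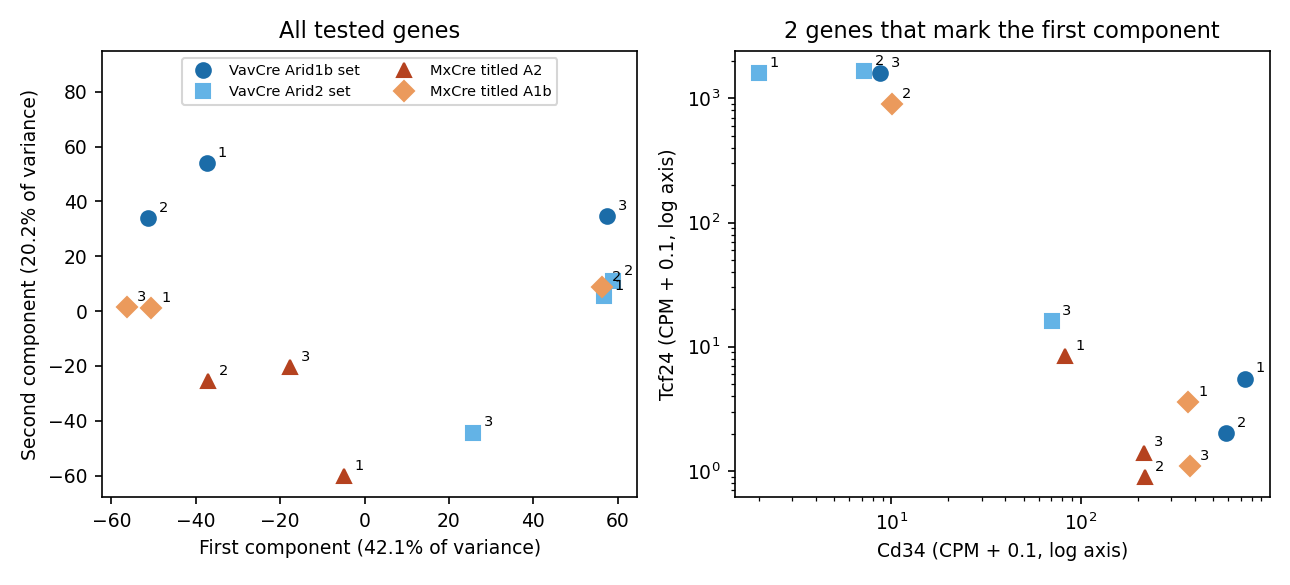
Left, scores of the 12 controls on the first and second principal components of log2 CPM; right, Tcf24 against Cd34, both in CPM + 0.1 on log axes. Numbers are replicate numbers. Libraries of both Cre lines fall at each end of the first component, and only MxCre titled A1b control 2 of the MxCre controls lies at its positive end.

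The second component held 20.2% of the variance and had MxCre titled A2 control 1 and VavCre Arid2 control 3 at its lower end. Monocyte and granulocytic maturation genes both had their highest sums in these libraries. Cx3cr1, the fractalkine receptor of patrolling monocytes, measured 208 CPM in MxCre titled A2 control 1 and 107 CPM in VavCre Arid2 control 3. It measured 22.4 to 80.6 CPM in the other 5 MxCre controls and 1.72 to 24.6 CPM in the other 5 VavCre controls.

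Differences between sets under the same Cre line were counted beside the contrast between lines, though the fits and group sizes differ. Between the VavCre sets edgeR called 21 genes (0.164%), 4 higher and 17 lower in the Arid2 set, and DESeq2 called 622 (4.85%). An unadjusted p under 0.05 was reached there by 2038 genes (15.9%), from 3 against 3 libraries in a fit with 4 set means. Between Cre lines, with 6 against 6 libraries, it was reached by 1824 (14.2%) with Cre line as the only term. In the fit with set means it was reached by 2128, so the order of these counts depends on the fit. Between the MxCre sets edgeR called 0, with 953 genes at an unadjusted p under 0.05 (7.44%), and DESeq2 called 84 (0.656%). Pairing the MxCre set titled A2 with the VavCre Arid1b set gave 9 calls (0.0702%), and with the VavCre Arid2 set 12 (0.0936%). Unadjusted p fell under 0.05 for 1834 (14.3%) and 1909 (14.9%) genes in these pairs. The MxCre set titled A1b gave 0 calls by edgeR against either VavCre set, with 1181 (9.22%) and 1956 (15.3%) genes at an unadjusted p under 0.05. The count of calls within VavCre was above the count of calls in each of these 4 pairs, but it moved with single libraries. It was 163 without VavCre Arid1b control 3 and 0 to 3 without any 1 of the other 5. VavCre Arid1b control 3 also stood apart over the 434 tested genes of chromosome 12, with a relative log2 level of 0.48. That level was 0.20 in MxCre titled A1b control 2 and -0.12 to -0.020 in the remaining controls. The bearing of this on the counts was not tested. For the 21 genes called within VavCre, the MxCre mean lay nearer to the Arid1b set for 15 and nearer to the Arid2 set for 6.

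Of the 17 called genes lower in the VavCre Arid2 set, 9 (52.9%) had names of clones, microRNA entries or antisense transcripts. Cand2, a regulator of cullin ubiquitin ligases, measured 60.3, 49.5 and 50.7 CPM in that set, 99.3, 101 and 133 CPM in the Arid1b set and 98.3 to 144 CPM in the MxCre controls. This is the deepest set, and with all libraries thinned to the depth of the shallowest the VavCre pair gave 17 calls. Col6a3, a collagen chain, set the MxCre libraries titled A2 apart, at 0.279 to 2.48 CPM against 20.7 to 85.9 CPM in the other 9 controls.

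Neighbouring genes on chromosome 3 distinguished the VavCre Arid1b controls from all other controls. Of 24 tested genes between 87.5 and 88.5 Mb (mm10), all 3 libraries of this set lay above the other 9 for 6 (25%, against 0.812% of all tested genes) and below them for 1, Sema4a (4.17%, against 2.18%). The 6 genes were Prcc, Hdgf, Mrpl24, Rrnad1, Isg20l2 and Gpatch4, and apart from Nes, which lies before Gpatch4, they follow one another among the tested genes. Hdgf, a nuclear growth factor, measured 688 to 762 CPM in the Arid1b set and 317 to 513 CPM in the other 9. Mrpl24, a mitochondrial ribosomal protein, measured 137 to 181 CPM against 82.9 to 117 CPM, and Isg20l2, a nucleolar exonuclease, 103 to 119 CPM against 57.3 to 71.1 CPM. Sema4a, a semaphorin of immune cells, measured 57.7 to 73.5 CPM in the set and 135 to 255 CPM elsewhere. The stretch, with 24 of the 12814 tested genes, held 5 of the 21 calls within VavCre (0.164% of all tested genes were called). It was chosen on the values of these same sets, so this count is a description. Without the VavCre Arid2 set 6 genes were called between Cre lines and Prcc, Hdgf and Isg20l2 were 3 of them. The stretch was chosen after its values were seen, and its boundaries are round numbers.

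**Figure D3:**
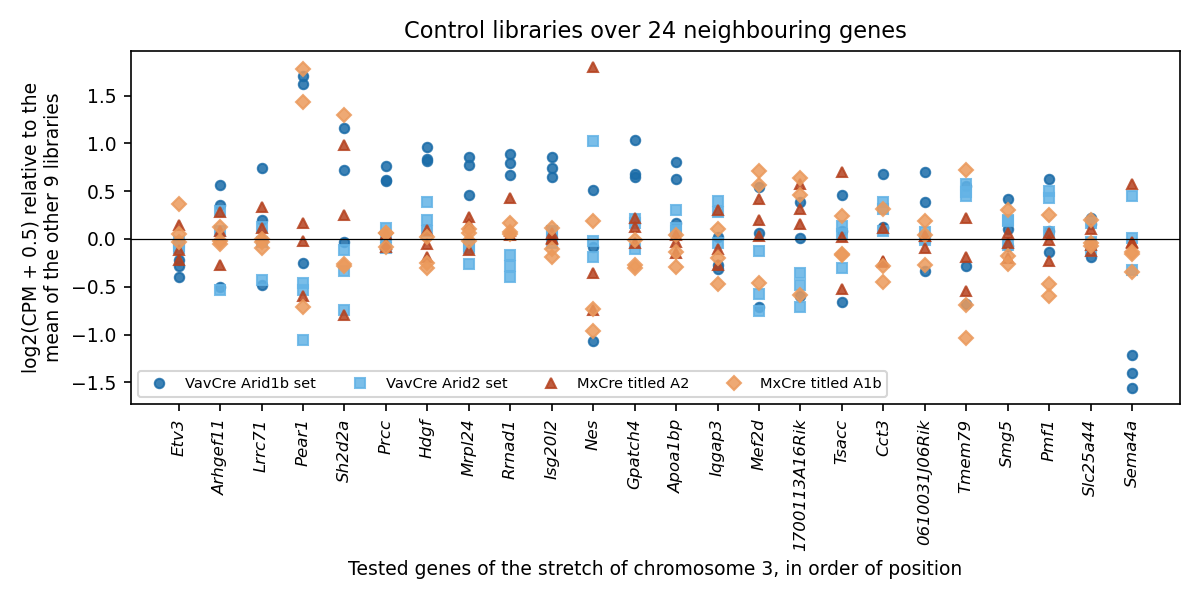
Level of each control library on the log2(CPM + 0.5) scale, relative to the mean of the 9 libraries outside the VavCre Arid1b set (vertical axis), for the 24 tested genes of the chromosome 3 stretch in order of position. The 3 libraries of the VavCre Arid1b set lie above the others from Prcc to Isg20l2 and at Gpatch4, and below them at Sema4a.

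The 12 floxed libraries share no sample with the controls, but Arid1b or Arid2 was targeted in them. Their MxCre and VavCre libraries differed by 138 genes (1.08%) in edgeR and did not overlap for 264 (2.06%), 161 higher (1.26%) and 103 lower (0.804%) in MxCre. An unadjusted p under 0.05 was reached by 19.9% of genes there. Of the 54 genes that did not overlap in the controls, 23 (42.6%) had a difference of the same sign in the floxed libraries, and 1 of them was called there. Of the 1824 genes at an unadjusted p under 0.05, 344 (18.9%) had the same sign, beside 32.9% of all tested genes. The difference between Cre lines itself differed between controls and floxed libraries for 966 genes (7.54%) by edgeR's interaction term.

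Cd63 had the opposite order in the 2 kinds of library. It was lower in every MxCre control, and in the floxed libraries it ranged from 44.6 to 147.5 CPM in VavCre and from 219 to 464 CPM in MxCre, again without overlap (log2 fold change 1.81, edgeR adjusted p = 0.0287). Lta4h had a log2 fold change of -0.53 in the controls and 1.36 in the floxed libraries (edgeR adjusted p = 0.0463). Pyhin1 had 1.73 and -0.76, Irf8 1.19 and -1.51, and the MHC class II list a median of 0.96 in controls and -1.56 in floxed libraries. These genes and the class II list were picked on their control values. The interferon response list, with a median of -0.06 in controls, had 0.82 in the floxed libraries, beside 0.02 over all tested genes. The granulocytic maturation list had -0.14 and 2.46, and the oxidative phosphorylation list -0.19 and 0.18. These list medians were not tested.

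**Figure D4:**
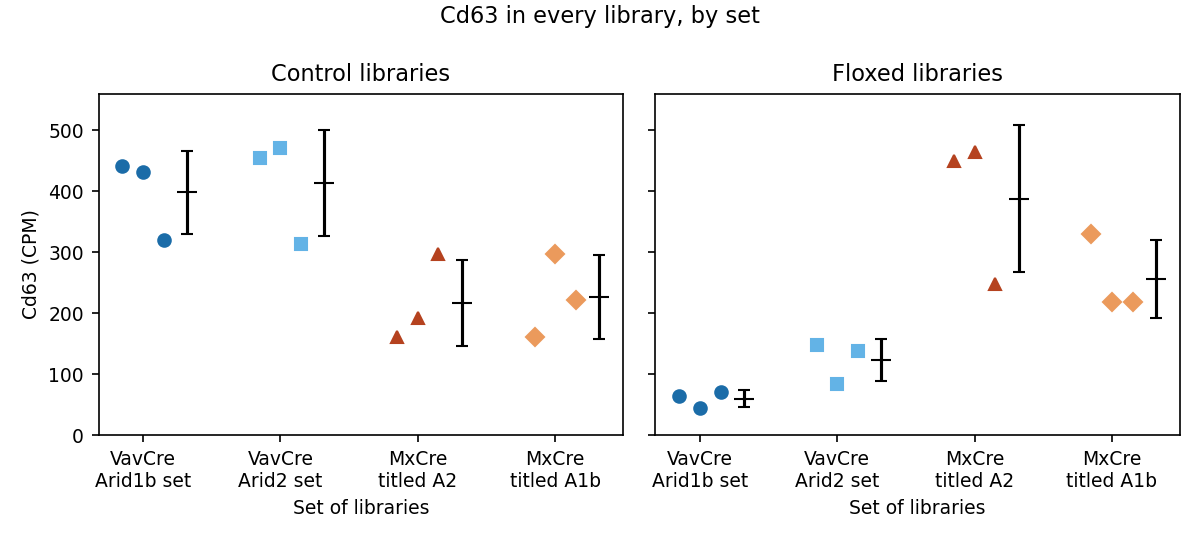
Cd63 in CPM (vertical axis) in each library of the 4 sets, controls on the left and floxed libraries on the right, with the mean and SD of each set in black. The MxCre controls sit at 160.3 to 297 CPM, below the VavCre controls, while the floxed MxCre libraries sit at 219 to 464 CPM, above the floxed VavCre libraries. Both panels share an axis, but controls and floxed libraries were scaled to CPM separately, so levels are not compared between panels.

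**Figure D5:**
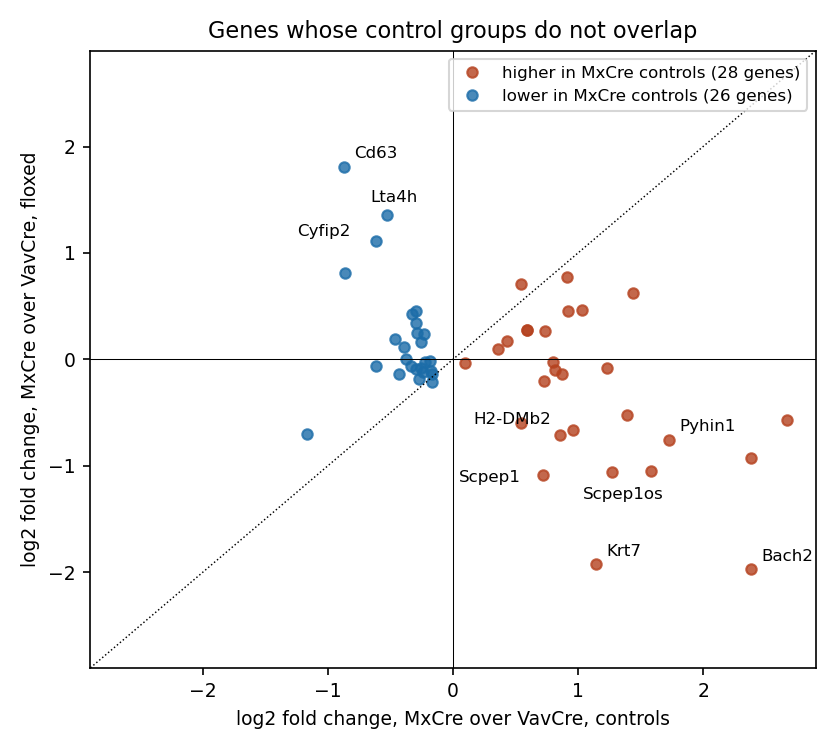
Log2 fold change of MxCre over VavCre in the controls (horizontal axis) and in the floxed libraries (vertical axis) for the 54 genes whose control groups do not overlap; the dotted line marks equal values. Cd63, Lta4h and Cyfip2 lie below 0 in the controls and above 0 in the floxed libraries.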

How the data were processed

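RNA was measured by sequencing poly(A)-selected RNA from bone marrow with a directional kit, per the labels' protocols. The authors deposited 1 table of whole-number read counts per gene, not normalized. STAR and mm10 are named in the submitters' processing notes; for the counting tool, annotation and strand setting the entry is: not given in the sources used here. From those counts, genes passing edgeR's expression filter (minimum count 10, minimum total 15) were scaled by TMM and tested with edgeR 4.0.16 (R 4.3.3) quasi-likelihood fits. The Cre line comparison used the 12 controls with Cre line as the only term, which left 10 residual degrees of freedom and kept the spread between sets in the error. Pairs of sets used a fit with 4 set means (8 degrees of freedom). Adjusted p-values are Benjamini-Hochberg values over all 12814 genes, called under 0.05. CPM values are counts scaled by library size and TMM factor, and controls and floxed libraries were scaled separately, so their levels are not compared. DESeq2 1.42.0 and limma 3.58.1 were alternatives. The test was checked on simulated data that held no differences between sets.

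The naming rule took the genes of the Cre lines, the Arid genes, Xist and Kdm5d, called genes (up to 12 in each direction where the 6 and 6 libraries did not overlap, and the 5 with the smallest p), and from each list up to 4 called members or, with none called, the 2 with the smallest p. The gene called between Cre lines is not reported here. Most genes without overlap, the set pair genes, the chromosome 3 stretch, the principal component genes and further list members fall outside the rule and were chosen after their values were seen. The libraries compared and the 32 gene lists were chosen with earlier results of these data known. Library totals of 12727157 to 38315410 counts limit the precision of low genes. Replicate numbers did not pair the libraries: same-numbered libraries of different sets correlated at a median of -0.15 over 18 pairs, beside 0.05 over 36 pairs with different numbers. Chi-square comparisons of the 12 pairs of control libraries within a set found none alike within sampling noise, but the pairs differed widely. The mean chi-square per gene was 14.4 for MxCre titled A1b controls 1 and 3 and 27.3 for VavCre Arid1b controls 1 and 2. Pairs of these libraries with the remaining replicate of their set gave 98.5 to 136. Libraries of a set may therefore not be equally independent, and whether the close pairs share an origin was not tested.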

Additional observations from a re-analysis of the deposited data

Results flagged for a closer look

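In 7 of 90 groups of 6 control libraries, 1 library stood apart from the other 5 by Dixon's ratio on log2(CPM + 0.5) past its 95% critical value. Chance alone gives about 1 in 20 for independent genes named beforehand. Many of these genes were named after their values were seen, some for the libraries flagged here, so that rate does not apply and the count is a description. MxCre titled A1b control 2 did so for Tcf24 (896.8 CPM against at most 8.32 CPM, ratio 0.706), Gata2 (1.08 CPM against 27.9 to 106 CPM, ratio 0.686) and Hba-a1 (7.07 CPM against at most 0.892 CPM, ratio 0.765). Among the MxCre controls titled A2, control 3 was highest for Arid1b (448 CPM against 142 to 217 CPM, ratio 0.632), control 2 for Rrnad1 (93.4 CPM against 71.2 to 77.7 CPM, ratio 0.679) and control 1 for Sema4a (255 CPM against 135 to 167 CPM, ratio 0.659). Among the VavCre controls, Arid1b control 1 was lowest for H2-DMb2 (1.36 CPM against 2.72 to 3.79 CPM, ratio 0.656).

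The Cre line difference itself differed between controls and floxed libraries, by edgeR's interaction term at an adjusted p under 0.05, for 13 of 45 named genes, beside 7.54% of all tested genes. Most of these genes were named for their control values, and Arid1b or Arid2 was targeted in the floxed libraries. The control difference minus the floxed difference was above 0, in log2 units, for Bach2 (4.35), Irf8 (2.70), Pyhin1 (2.49), Scpep1os (2.32), Scpep1 (1.80), Cd68 (1.71) and Ifnar1 (1.20). It was below 0 for Prg3 (-5.16), Ddx58 (-2.88), Cd63 (-2.69), Lta4h (-1.89), Cyfip2 (-1.74) and Hdgf (-1.03).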

How the results depend on the processing

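The count of genes called between Cre lines, 1 in the reported fit, was 139 with DESeq2, 2 with limma-voom sample weights, 0 with set as a random block in voom, 0 with counts summed per set, 0 with a term for Y-positive libraries and 0 with the first principal component as a term, which was added after seeing the data. It was 12 without the VavCre Arid1b controls, 6 without the VavCre Arid2 controls, 0 without the MxCre controls titled A2 and 2 without those titled A1b. Leaving out 1 library at a time gave 0 to 1. Between the VavCre sets the count of 21 became 622 with DESeq2, 4 with no filter on low counts, 6 with all 24 libraries in the fit, and 0 to 163 with 1 library left out. Between the MxCre sets the count of 0 became 84 with DESeq2, and 0 to 5 with 1 library left out, the 5 without MxCre titled A1b control 2. With the replicate number as a block the counts were 0 between Cre lines, 0 between the VavCre sets and 0 between the MxCre sets. The causes of these changes were not tested. Of 47 genes named in the text 15 changed the sign of their log2 fold change under at least 1 alternative, in 71 of 1404 values, and 0 of the 71 passed the threshold by the alternative's own test. Without the VavCre Arid1b controls Cd34 was at 3.01, Gata2 at 4.18, Isg15 at -0.43, Xist at -0.45, Rrnad1 at 0.43, Mrpl24 at 0.22 and Sema4a at -0.070. Without the VavCre Arid2 controls Vav1 was at 0.15, Hoxa9 at 0.012 and Ifit1 at 0.93. Without the MxCre controls titled A2 Xist was at -0.48, Cd34 at 0.10, Ifit1 at 0.34, Col6a3 at 0.33 and Mpo at 0.15, and without those titled A1b Arid2 was at 0.15, Isg15 at -1.33 and Hba-a1 and Hba-a2 at -0.088. Cd34, Gata2 and Isg15 were at 0.94, 1.53 and -0.21 with means per set and with 24 libraries, at 1.98, 2.59 and -0.057 with the random block, at 3.504, 3.92 and -0.28 with sample weights, which put Xist at -1.18 and Rrnad1 at 0.068, and at 1.31, 2.13 and -0.011 with the Y term, which put Xist at -0.33. The replicate block put Cd34 at 0.10 and Gata2 at 0.060, thinning put Isg15 at -0.025, and counts summed per set put Vav1 at 0.0060 and the exon length offset at 0.011. The first component as a term put Vav1 at 0.046, Arid2 at 0.030, Hoxa9 at 0.25, Ifit1 at 0.11 and Mpo at 0.53. With 1 library left out the ranges were -0.054 to 0.021 for Vav1, -0.40 to 0.016 for Arid2, -0.41 to 0.66 for Cd34, -0.39 to 0.70 for Gata2, -0.33 to 0.43 for Isg15, -1.64 to 0.24 for Ifit1, -0.88 to 0.12 for Mpo and -0.31 to 1.70 for Hba-a1 and Hba-a2. Of 32 list medians 13 changed sign, the erythroid one from 1.29 to -0.48 without MxCre titled A1b control 2, and that of the interferon response list ranged from -0.15 to 0.24 with 1 library left out. Low genes are limited by depth.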
